A study of Mus musculus with 6 samples.

Results

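The genes described here are 9 genes that mark upper layer pyramidal neurons of the cortex, Cux1, Cux2, Pou3f2, Lhx2, Rorb, Mef2c, Rasgrf2, Calb1 and Otof. They were taken by gene name from the 31763 genes of the deposited table. The rule itself uses no measured value, but the genes were proposed with earlier results of these data known. All 9 were found, and all 9 were among the 18970 genes tested, those that reached 10 counts in 3 or more libraries. Both groups were male C57BL/6J mice of 8 to 10 weeks trained in conditioned place preference, a test in which one chamber is paired with a drug, with morphine (10 mg/kg, i.p.) in the morphine group and saline (10 ml/kg, i.p.) in the saline controls. After withdrawal in the home cage and a retrieval test, RNA was taken from the medial prefrontal cortex (mPFC) and sequenced from 3 samples per group. The labels do not say whether a sample is 1 mouse, so the p-values measure only the spread between these samples. The question was whether the genes of upper layer neurons differed between the groups, and whether saline sample 1 sets the answer.

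Pyramidal neurons of the upper cortical layers project mainly to other cortical areas, while those of the deep layers send axons to subcortical targets. In the developing cortex, Cux1, Cux2 and Pou3f2 mark the upper layer fate and Bcl11b, Fezf2 and Tbr1 the deep layer fates. Rorb is best known from layer 4 of sensory areas, a layer that the mouse mPFC lacks as a distinct granular sheet. Several of these genes are also used elsewhere in the brain, among them Calb1 in interneurons and Mef2c in interneurons, microglia and endothelial cells. In bulk tissue, fewer cells of a type and less RNA per cell cannot be told apart.

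The libraries held 17984153 to 23529592 counts in the morphine group and 19543377 to 22776251 in saline controls, and the 9 genes took 0.204% to 0.226% of the counts in the morphine group and 0.188% to 0.217% in saline controls. Of these libraries, saline sample 1 was set apart by the level of olfactory bulb markers. Of 15 tested markers of the olfactory bulb, the region just rostral to the frontal cortex, 14 were more than 2 times higher there than in any other library. The 15 tested markers summed to 293 to 329 CPM (counts per 1000000 of the normalized library) in the morphine libraries. Their sum was 936 CPM in saline sample 1 and 286 and 293 CPM in the other 2 saline libraries. Part of this sum was present in every library. Meis2 alone had 139, 136 and 144 CPM in the morphine group and 302, 134 and 141 CPM in saline controls. The source of the higher levels in saline sample 1 was not tested. Cdhr1, a marker of the bulb's projection neurons, had 3.54, 3.92 and 3.59 CPM in the morphine group and 114, 2.88 and 3.12 CPM in saline controls. Eomes, another marker of these neurons, was not among the 15 tested and is not in the sum. It had 6, 1 and 7 counts in the morphine group and 462, 2 and 0 counts in saline controls, so it is listed at 0 in saline sample 3 alone. The excitatory cortical marker Slc17a7, the vesicular glutamate transporter, had 1319 to 1361 CPM in the morphine group and 1215 to 1296 CPM in saline controls and was thus abundant in every library, as the labelled tissue requires. The fold changes of the 9 genes and the list medians are therefore given with and without saline sample 1.

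The genes lie on chromosomes 2, 4, 5, 13 and 19 of GRCm38 (mm10), with 3 of them on chromosome 5. Cux1 spans chr5:136248135-136567490, Cux2 chr5:121856366-122050102 and Otof chr5:30367062-30461932, all on the minus strand. Rasgrf2 (chr13:91880400-92131656, minus) and Mef2c (chr13:83504034-83667080, plus) share chromosome 13. Calb1 (chr4:15881264-15908064, plus) and Pou3f2 (chr4:22482780-22488366, minus) share chromosome 4. Lhx2 lies at chr2:38339281-38369733 (plus) and Rorb at chr19:18930605-19111196 (minus). In the GENCODE annotation, exons of 1 of the 9, Cux1, overlap another gene, the antisense transcript Gm16599, over 394 bases or 1.97% of the Cux1 exons. Gm16599 had at most 40 counts in any library, so this overlap can move the Cux1 counts only slightly.

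Because most of the genes encode transcription factors, their promoters were searched for short motifs that factors of these families bind. RefSeq (GRCm38.p6) gave 12 windows for 7 of the 9 genes, and Calb1 and Otof had none. Each window held the 250 bases before a start site and a short stretch after it. GC and motifs were taken over the whole window, here and for all genes. The 12 windows ranged from 35.7% to 80.3% GC, and 7 of them were over 60%, against a median of 52.7% over all windows. The 2 windows shown are those that held both a TATA motif and a motif bound by a family in the list. Only their 250 bases before the start are printed. Capitals mark the motifs, on either strand: ATCGAT (bound by Cux proteins) and TATAAA in the Cux2 window, which share 1 base, and TAATTA (homeodomain), AGGTCA (the core bound by nuclear receptors, read here as TGACCT) and TATAAA (read here as TTTATA) in the Mef2c window.
Cux2, chr5:122047826-122048075, minus strand, second start: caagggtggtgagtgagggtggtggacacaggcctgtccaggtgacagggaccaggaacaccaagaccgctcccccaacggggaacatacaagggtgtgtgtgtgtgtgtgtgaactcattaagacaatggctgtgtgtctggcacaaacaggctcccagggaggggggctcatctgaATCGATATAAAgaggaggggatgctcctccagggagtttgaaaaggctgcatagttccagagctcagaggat
Mef2c, chr13:83523406-83523655, plus strand, second start: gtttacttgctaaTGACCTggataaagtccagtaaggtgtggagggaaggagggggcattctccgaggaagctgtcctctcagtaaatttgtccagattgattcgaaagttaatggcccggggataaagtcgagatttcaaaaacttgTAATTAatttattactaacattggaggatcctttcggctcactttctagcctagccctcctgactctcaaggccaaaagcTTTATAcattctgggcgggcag

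In the Cux2 window, ATCGAT began 72 bases before the start and TATAAA 67 bases before it. In the Mef2c window, AGGTCA began 237, TAATTA 102 and TATAAA 22 bases before the start, with AGGTCA and TATAAA on the strand opposite to the gene. ATCGAT was found in 1 of the 12 windows and in 0.925% of 32851 windows of all genes, and TAATTA in 1 of 12 and in 5.29%. AGGTCA was found in 2 of the 12, both of Mef2c, and in 16.3% of all windows. TATAAA was found in 3 of the 12 and in 13.6%. The MEF2 motif CTANNNNTAG (3.69% of all windows) and the octamer ATGCAAAT of POU factors (1.74%) were in none of the 12, which says only that these letters are not in these windows. A match is a description of the letters, not of binding.

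Per length, the 9 genes were expressed at widely different levels, in the same order in all 6 libraries. Mef2c, a MADS-box factor that controls synapse number, was highest, at 71.9, 67.3 and 73.0 FPKM in the morphine group and 62.3, 70.9 and 71.7 FPKM in saline controls. Rasgrf2, a calcium-dependent exchange factor for Ras and Rac, followed at a median of 29.6 FPKM, and then Calb1, the calcium buffer calbindin, at 26.4 FPKM. Cux2 had a median of 19.9 FPKM and Rorb 15.0 FPKM. Pou3f2 stood at 10.7 FPKM, Lhx2 at 9.20 FPKM and Cux1 at 7.17 FPKM. Otof, which encodes the vesicle calcium sensor otoferlin, was lowest, at 3.74, 3.70 and 3.76 FPKM in the morphine group and 2.35, 4.26 and 3.68 FPKM in saline controls. Over the 6 libraries the ranges of Rasgrf2 and Calb1, of Cux2 and Rorb, and of Pou3f2 and Lhx2 overlapped. Within each library the first gene of each pair was still the higher, and the ranges of the other neighbours did not overlap. Otof had the fewest counts, 526 to 699 in the morphine libraries and 423 to 717 in the saline libraries.

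**Figure D1:**
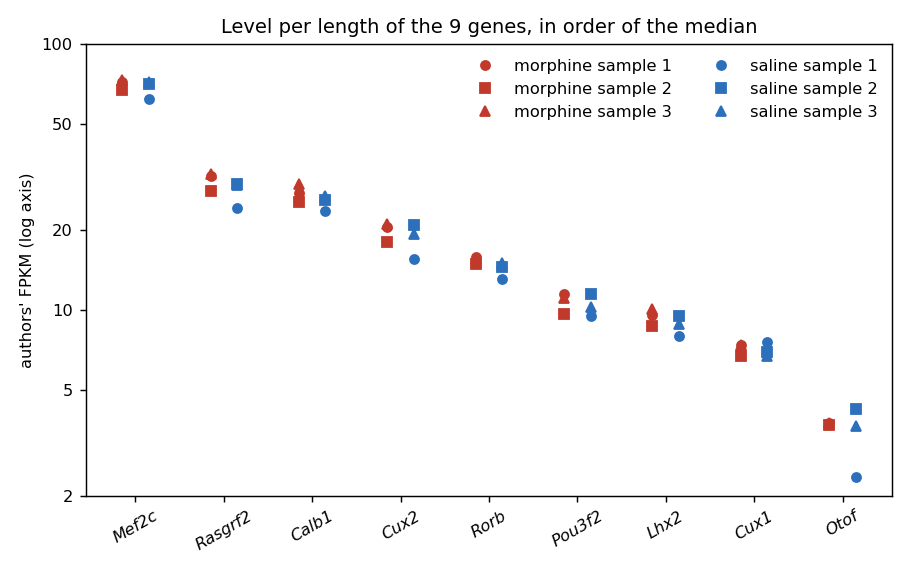
FPKM of each gene as deposited (log axis), in order of the median, with 3 morphine libraries (red, left) and 3 saline libraries (blue, right) per gene. Mef2c lies between 62.3 and 73.0 FPKM and Otof between 2.35 and 4.26 FPKM, and the saline sample 1 circle is the lowest point of every gene but Cux1.

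No gene of the 9 differed between morphine-trained mice and saline controls beyond the spread between samples. All 9 fitted log2 fold changes of morphine over saline were positive but small, at 0.04 to 0.17, with standard errors of 0.06 to 0.18, and 47.5% of all genes tested were positive. With edgeR's quasi-likelihood test, adjusted p (Benjamini-Hochberg over all genes) lay between 0.65 and 0.89, and 0 of 9 genes passed an adjusted p of 0.05, against 0% of all genes. At an unadjusted p of 0.05, 0 of 9 were higher, against 2.77% of all genes, and 0 of 9 were lower, against 4.96%. DESeq2 called 0 of 9 at an adjusted p of 0.05, against 0.059% of all genes, and 0 of 9 at an unadjusted p of 0.05, against 1.28% higher and 1.92% lower of all genes. In CPM, 0 of 9 genes had 3 morphine libraries above all 3 saline libraries, against 5.98% of all genes, and 0 of 9 had them below, against 7.32%. The median log2 fold change of the 9 was 0.12, against -0.01 over all genes.

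Among the homeodomain factors, Cux2, which shapes dendrites and spines of upper layer neurons, had 209, 181 and 216 CPM in the morphine group and 154, 212 and 194 CPM in saline controls. The groups overlapped, with saline sample 1 lowest and saline sample 2 above 2 of the 3 morphine libraries. Its log2 fold change was 0.12 ± 0.11 (SE, edgeR adjusted p = 0.78), and -0.0029 ± 0.06 without saline sample 1. Cux1, its paralog, had 150, 133 and 150 CPM in the morphine group and 149, 140 and 134 CPM in saline controls. It was the only one of the 9 with saline sample 1 highest among the saline libraries, and its log2 fold change was 0.04 ± 0.06 with that library and 0.08 ± 0.06 without it.

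Pou3f2, a POU factor needed to make and place upper layer neurons, had 65.0, 53.5 and 63.2 CPM in the morphine group and 52.1, 64.6 and 57.2 CPM in saline controls. Each group had libraries at both ends of the range, and the log2 fold change was 0.07 ± 0.09, or -0.0055 ± 0.08 without saline sample 1. Lhx2, a LIM homeodomain factor that sets cortical identity in the embryo, had 42.6, 37.8 and 45.0 CPM in the morphine group and 34.6, 42.0 and 38.9 CPM in saline controls. Morphine samples 1 and 3 were the highest libraries for Lhx2, saline sample 1 was the lowest, and the log2 fold change was 0.12 ± 0.09, against 0.05 ± 0.08 without saline sample 1.

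Rorb, a nuclear receptor that sets layer 4 identity in sensory cortex, had the lowest p of the 9. It had 178, 164 and 175 CPM in the morphine group and 142, 162 and 166 CPM in saline controls. The groups overlapped only in that morphine sample 2 was below saline sample 3. Rorb's log2 fold change was 0.14 ± 0.07 (edgeR adjusted p = 0.65), a level 9.89% higher with a 95% interval of 0.99- to 1.22-fold, and 0.07 ± 0.05 without saline sample 1 (edgeR adjusted p = 0.64).

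Mef2c, the most abundant of the 9, had 1144, 1050 and 1168 CPM in the morphine group and 962, 1119 and 1125 CPM in saline controls. Saline samples 2 and 3 differed by less than 1% (coefficient of variation 0.368%), and saline sample 1 lay at 85.7% of their mean. The log2 fold change of Mef2c was 0.07 ± 0.07, and 0.00 ± 0.06 without saline sample 1, with a 95% interval of 0.92- to 1.08-fold in the 5 libraries.

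Of the genes for calcium handling and signalling, Rasgrf2 had the largest fitted difference of the 9. It had 299, 257 and 305 CPM in the morphine group and 220, 277 and 272 CPM in saline controls, with morphine sample 2 below 2 of the saline libraries. Its log2 fold change was 0.17 ± 0.09 (edgeR adjusted p = 0.68), a 12.1% higher level with a 95% interval of 0.97- to 1.29-fold, and 0.07 ± 0.06 without saline sample 1. Calb1 had 135, 122 and 146 CPM in the morphine group and 113, 126 and 130 CPM in saline controls. Again morphine sample 2 lay among the saline libraries, and the log2 fold change was 0.13 ± 0.08, or 0.07 ± 0.06 without saline sample 1.

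Otof varied most among saline controls and least in the morphine group, with coefficients of variation of 2.17% in the morphine libraries and 29.5% in the saline libraries. It had 29.97, 29.0 and 30.3 CPM in the morphine group and 18.2, 33.8 and 29.0 CPM in saline controls. The 3 morphine libraries lay within the saline range, and the log2 fold change was 0.14 ± 0.18, with a 95% interval of 0.84- to 1.45-fold. Without saline sample 1 it was -0.08 ± 0.08, or 5.22% below the saline level, so the sign of the Otof difference turned without that library.

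**Figure D2:**
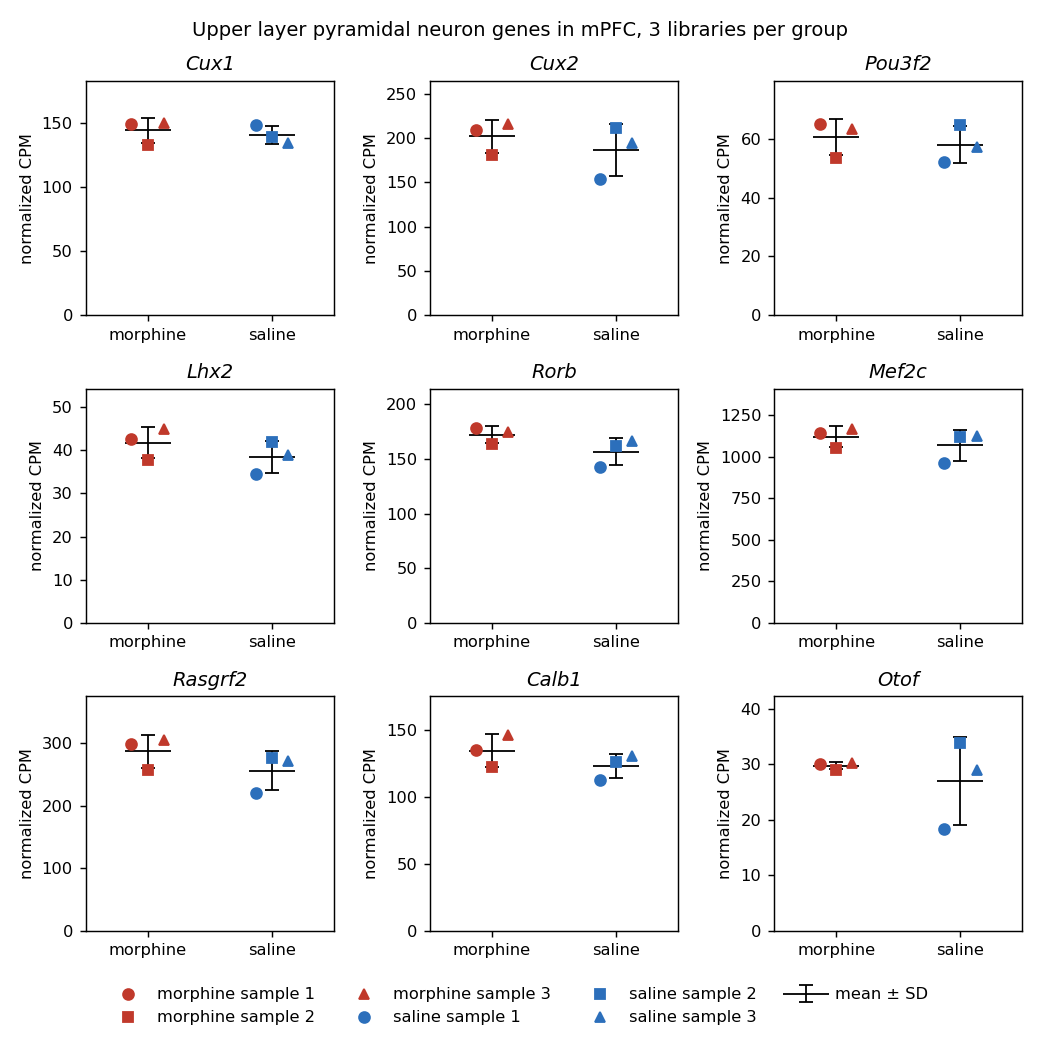
Normalized CPM of each gene in the 3 morphine libraries (red, left) and the 3 saline libraries (blue, right), with the group mean and SD as black bars and each axis starting at 0. The groups overlap in all 9 panels, and the blue circle, saline sample 1, is the lowest point of every gene but Cux1.

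One library of each group was low for most of the 9 genes. Saline sample 1 was the lowest of the 6 libraries for 8 of the 9, all but Cux1, against 22.1% of all genes. It lay at 58.1% of the mean of saline samples 2 and 3 for Otof, 75.9% for Cux2, 80.4% for Rasgrf2 and 85.5% to 87.9% for Pou3f2, Lhx2, Mef2c, Rorb and Calb1, and at 109% for Cux1. Morphine sample 2 was the lowest morphine library for 9 of 9, against 36.1% of all genes, at 83.5% (Pou3f2) to 96.4% (Otof) of the mean of the other 2 morphine libraries. For the 8 genes lowest in saline sample 1, its gap to the other saline libraries was larger than the fitted difference between the groups.

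**Figure D3:**
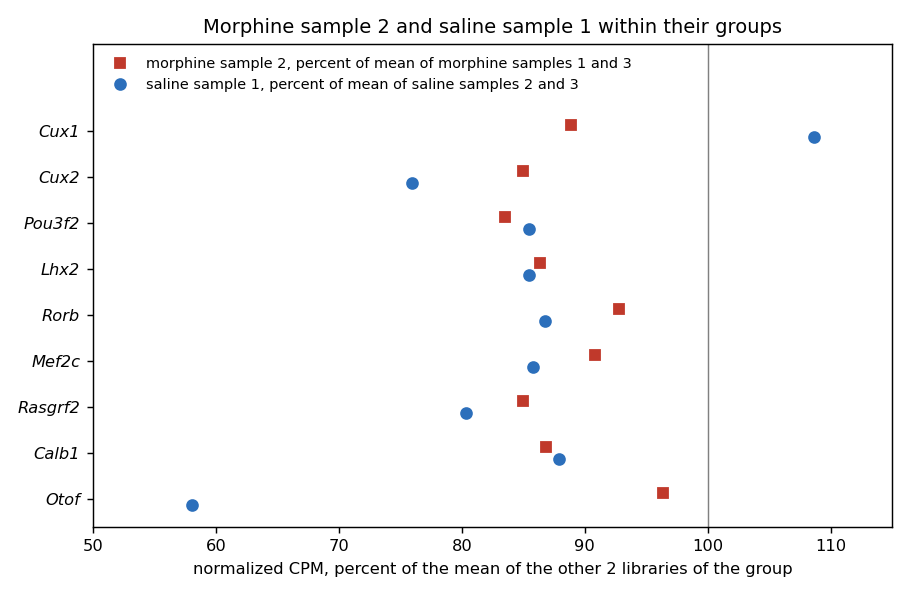
Level of each gene in morphine sample 2 (red squares) and saline sample 1 (blue circles), as a percent of the mean CPM of the other 2 libraries of its group. All red squares lie between 83.5% and 96.4%, and the blue circles lie between 58.1% and 87.9% except for Cux1 at 109%.

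Without saline sample 1, the median log2 fold change of the 9 was 0.05, against 0.00 over all genes. Of the 9, 6 were positive and 3 negative, while 51.4% of all genes were positive. At this setting 0 of 9 passed an adjusted p of 0.05, against 0.996% of all genes (186 genes), and 0 of 9 were higher at an unadjusted p of 0.05, against 4.14%. Adjusted p lay between 0.64 and 0.998 with edgeR. Of the 9, 0 lay above both saline libraries in all 3 morphine libraries, against 13.1% of all genes. The highest upper bound of a 95% interval was 1.16-fold (Lhx2) and the lowest lower bound 0.84-fold (Otof).

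Without morphine sample 2, the fitted differences were larger. The median was 0.17, and Rasgrf2 (0.24), Calb1 (0.20) and Rorb (0.17) reached an unadjusted p under 0.05 with edgeR, 3 of 9 against 3.95% of all genes. The lowest adjusted p was 0.42, and 0 of 9 passed an adjusted p of 0.05, against 0% of all genes. In 6 of 9 genes both remaining morphine libraries lay above the 3 saline libraries, against 14.7% of all genes. Morphine sample 2 was the lowest morphine library for 9 of 9 genes, against 36.1% of all genes. Leaving it out therefore raises the morphine level of each of the 9. The counts of 3 and 6 are no separate finding, and the shares of all genes are not a like-for-like measure.

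**Figure D4:**
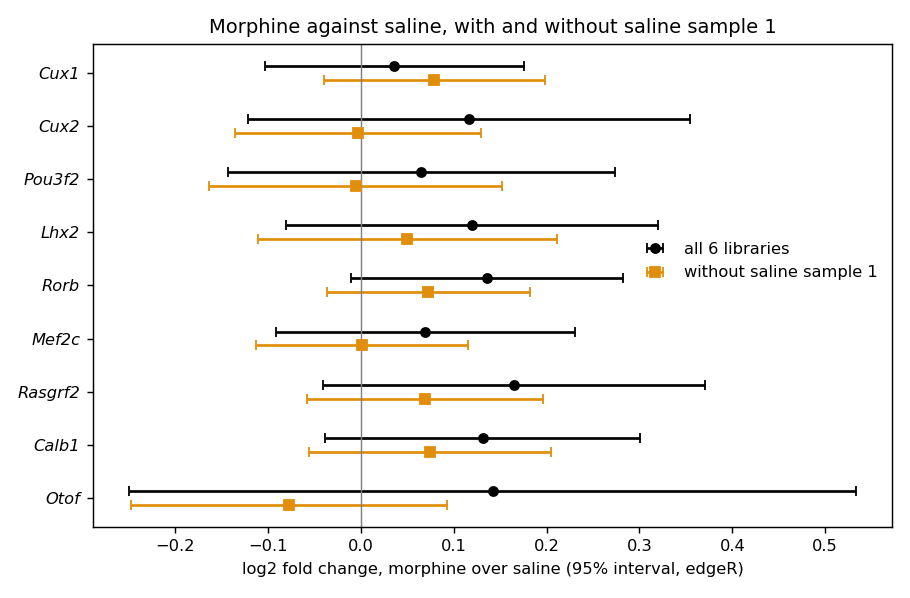
Log2 fold change of morphine over saline for each gene with its 95% interval, from edgeR, in all 6 libraries (black circles) and without saline sample 1 (orange squares). Every interval includes 0, and Cux2, Pou3f2 and Otof lie below 0 without saline sample 1.

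The median of other upper layer genes was, like that of the 9, lowest in saline sample 1 and, within the morphine group, in sample 2. Gene by gene the list was more divided than the 9. Of its 18 genes, 10 were lowest of the 6 libraries in saline sample 1, against 22.1% of all genes. In that library 7 of the 18 lay above the mean of the other saline libraries. In morphine sample 2, 12 were lowest of the morphine libraries, against 36.1% of all genes, and 6 were highest. Of all genes, 47.5% were positive (51.4% without saline sample 1), and 2.77% were higher at an unadjusted edgeR p under 0.05 (4.14% without it). Of 18 other upper layer genes, 14 were positive (11 without saline sample 1), 1 was at an unadjusted p under 0.05 (Pou3f1 and Cdh13, 2 genes, without it) and the median was 0.11 (0.07 without it). As a difference from the 6-library mean, their median log2 CPM was 0.08, -0.02 and 0.09 in the morphine group and -0.21, 0.06 and -0.09 in saline controls, against 0.10, -0.07 and 0.12 in the morphine group and -0.21, 0.03 and 0.01 in saline controls for the 9. The 1 gene was Pou3f1, a POU factor of the same family as Pou3f2, with 28.9, 24.2 and 27.2 CPM in the morphine group and 16.2, 24.5 and 22.2 CPM in saline controls. Its log2 fold change was 0.35 ± 0.14 (edgeR adjusted p = 0.62), and 0.20 ± 0.09 without saline sample 1 (edgeR adjusted p = 0.41). Pou3f3, the paralog that acts together with Pou3f2 in upper layer neurons, had 162, 154 and 165 CPM in the morphine group and 129, 160 and 151 CPM in saline controls, with a log2 fold change of 0.13 (0.05 without saline sample 1) that did not pass the unadjusted threshold. Lamp5, which marks layer 2/3 neurons and some interneurons, lay in saline sample 1 at 64.3% of the other saline libraries, while Mdga1 lay at 290% and was more than 2 times higher in saline sample 1 than in any other library.

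Among 18 relatives of the 9 by family, 15 were tested, 9 were positive and 3 had an unadjusted p under 0.05. Of these, 1 was higher, against 2.77% of all genes, and 2 were lower, against 4.96%. Dysf, a ferlin of membrane repair related to Otof, was lower in the morphine group in every library, at 6.75, 7.95 and 7.75 CPM against 9.83, 10.4 and 9.30 CPM in saline controls, with a log2 fold change of -0.40 ± 0.12 (edgeR adjusted p = 0.59) and the same value without saline sample 1. Calb2, calretinin, the paralog of Calb1 and an olfactory bulb marker, had 5.48, 4.91 and 7.14 CPM in the morphine group and 69.0, 5.61 and 4.802 CPM in saline controls. Its log2 fold change was -2.18 with saline sample 1 and 0.18 without it. The third was Pou3f1, which is also counted in the other upper layer list. Onecut2, which has a cut domain as the Cux genes do, had 10.3, 9.49 and 7.92 CPM in the morphine group and 5.56, 13.4 and 13.5 CPM in saline controls. It fell by 0.55 on the log2 scale without saline sample 1 (edgeR adjusted p = 0.040), and with that library its adjusted p was 0.84.

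The median of general excitatory neuron markers was also lowest in saline sample 1, at -0.20 on the log2 scale, and that of the deep layer genes was not. Of 12 excitatory neuron genes, 10 were positive with a median of 0.15 (0.10 without saline sample 1), and 10 were lowest in saline sample 1. Neurod6 and Neurod2, transcription factors of pyramidal neurons, had log2 fold changes of 0.24 and 0.21 (edgeR adjusted p = 0.57 and 0.59), or 0.18 and 0.15 without saline sample 1 (edgeR adjusted p = 0.20 and 0.28), and were the 2 of the list past the unadjusted threshold. The 9 genes summed to 33.2% to 34.9% of the summed CPM of the excitatory list in the morphine libraries and to 34.3% to 34.6% in the saline libraries, saline sample 1 included, although Mef2c gave 50.8% to 52.4% of the 9 genes' sum and Camk2a 41.4% to 45.0% of the excitatory sum. Against Slc17a7 alone, which in saline sample 1 lay at 95.1% of the other saline libraries, 8 of the 9 genes were at lower percentages there.

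Of 20 deep layer genes, 11 were positive, and the median was 0.02, or 0.10 without saline sample 1. Their median log2 CPM relative to all libraries was 0.06, 0.04 and -0.01 in the morphine group and 0.09, -0.13 and -0.04 in saline controls. This median was thus highest in saline sample 1, where that of the 9 was lowest. Gene by gene the deep layer list was divided in that library. Of the 20 genes, 13 lay above the mean of the other saline libraries, among them Nxph4 (754%), Syt6 (345%) and Bcl11b (153%). The other 7 lay below it, among them Zfpm2 (80.3%), Fezf2 (85.0%) and Tbr1 (89.2%). Relative to the summed deep layer list, which includes the genes high in saline sample 1, the 9 genes summed to 244%, 228% and 263% in the morphine group and to 191%, 265% and 253% in saline controls. Sox5 (0.14, and 0.10 without saline sample 1) and Cplx3 (0.55, and 0.66 without it) had an unadjusted p under 0.05 in all 6 libraries, with adjusted p of 0.63 for both in edgeR. Without saline sample 1, 15 of 19 tested deep layer genes were positive, against 51.4% of all genes, and 6 were higher at an unadjusted p under 0.05, against 4.14%. Of the 19, 1, Bcl11b, passed an adjusted p of 0.05 with edgeR, against 0.996% of all genes. Bcl11b, the factor of subcortical projection neurons that is also expressed by olfactory bulb and striatal neurons, had 116, 120 and 116 CPM in the morphine group and 154, 101 and 102 CPM in saline controls, and rose by 0.22 on the log2 scale without saline sample 1 (edgeR adjusted p = 0.048). The difference between the upper and the deep layer lists was not tested.

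**Figure D5:**
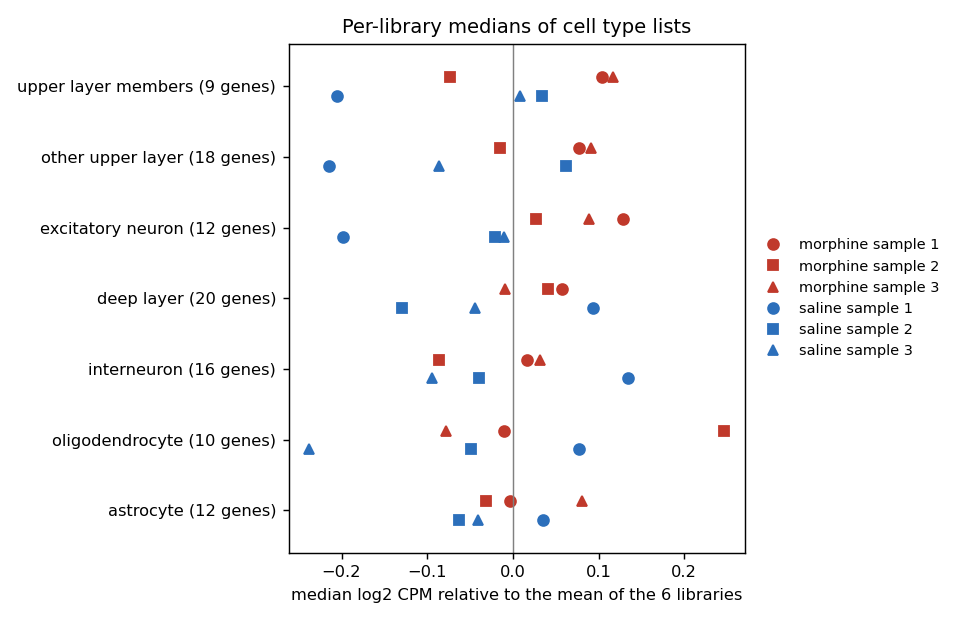
Median log2 CPM of each gene list in each library, relative to the mean of the 6 libraries, for morphine (red, upper row of each list) and saline (blue, lower row). Saline sample 1 (blue circle) is lowest for the upper layer and excitatory lists, at -0.21 for the 9 genes, and highest for the deep layer and interneuron lists, and morphine sample 2 (red square) is highest for oligodendrocytes, at 0.25.

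Markers of some other cell types, but not of all, were higher in a library where the 9 genes were low. Microglia genes were split in saline sample 1, with 5 above and 5 below the mean of the other saline libraries. Endothelial and mural genes were split there in the same way. In morphine sample 2, all 10 oligodendrocyte genes were at their highest among the morphine libraries. The share of all genes highest in that sample was not taken. The oligodendrocyte genes summed to 1501, 1771 and 1450 CPM in the morphine group and 1664, 1487 and 1271 CPM in saline controls, and none was at 0. In saline sample 1, the 16 interneuron genes summed to 1493 CPM, against 849 to 900 CPM in the morphine libraries and 829 to 872 CPM in the other saline libraries. Of the 16, 10 were above the mean of the other saline libraries there and 6 below. Gad1 (560 CPM), Reln (367 CPM) and Gad2 (239 CPM) gave most of the sum. The 6 below were Pvalb at 52.8%, Lhx6 at 59.96%, Vip at 79.9%, Prox1 at 84.7%, Sox6 at 96.2% and Sst at 99.85% of the other saline libraries. Gad1, the enzyme that makes GABA, and Reln, a secreted guidance protein, were more than 2 times higher there than in any other library, as were Syt6 and Nxph4 of the deep layer list. The part of these cells in the levels of the 9 genes was not tested. Of the remaining lists, the median log2 fold changes, with and without saline sample 1, were 0.07 and 0.04 for astrocyte, 0.04 and 0.06 for microglia, 0.05 and 0.04 for endothelial and mural, 0.09 and 0.17 for striatal neuron, 0.13 and 0.20 for oligodendrocyte, 0.04 and 0.04 for interneuron, 0.12 and 0.13 for mitochondrially encoded and -1.13 and 0.18 for olfactory bulb genes.

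Of 12754 other genes with a mean of at least 4 CPM, those whose log2 CPM followed the mean profile of the 9 most closely over the 6 libraries were Mink1 (Pearson r = 0.999), Dusp7 (0.997), Naa60 (0.996), Atxn7l3 (0.995) and Zfp106 (0.994). They share the libraries and their depth with the 9. Mink1, a kinase of the Ste20 family, had 286, 273 and 289 CPM in the morphine group and 261, 284 and 279 CPM in saline controls. It was chosen by its profile, so its low values in saline sample 1 and morphine sample 2 are no separate finding. Dusp7, a phosphatase of MAP kinases, had 94.0, 84.1 and 95.8 CPM in the morphine group and 76.4, 92.7 and 87.4 CPM in saline controls. The 5 log2 fold changes were 0.02 to 0.10, and 0.00 to 0.02 without saline sample 1.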

How the data were processed

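RNA of the mPFC was sequenced from rRNA-depleted, directional libraries of 3 morphine and 3 saline samples, grouped by their labels. The authors deposited 1 table with whole-number counts per gene, not normalized, and FPKM values, which equal the deposited counts over a gene length and a library factor (checked in 13342 genes at 50 or more counts throughout). The submitters' processing notes name the build mm10, HISAT2 2.1.0, StringTie 1.3.3, HTSeq 0.11.2, cutadapt 1.9.3, limma 3.40.6, DESeq 1.8.3 and DESeq2 1.26.0. Whether reads were counted by strand is not stated in these notes or in the methods.

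The 18970 genes that reached 10 counts in 3 or more libraries were scaled by TMM. Morphine was compared with saline by edgeR 4.0.16 (R 4.3.3; two-sided quasi-likelihood F test), since the study's DEGseq uses no spread between replicates. P-values were adjusted by Benjamini-Hochberg over all genes tested. CPM are counts per 1000000 of the TMM-scaled library. Standard errors and 95% intervals come from the same fit. Identifiers were matched to GENCODE on GRCm38 (31748 of 31763). Replicate pairs of a group differed by more than sampling noise (chi-square per degree of freedom 2.91 to 14.7). The highest values, 14.7 and 13.1, were those of the pairs with saline sample 1. Saline samples 2 and 3 had 2.91, and the morphine pairs 2.92 to 5.43. DESeq2 1.42.0, limma 3.58.1 on log2 FPKM, other scalings and filters, a replicate block and leaving out each library were alternatives. The code was tested on simulated data.

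The members and gene lists were chosen with earlier results of these data known. The rule for names took all 9 genes, list genes at an unadjusted p under 0.05 (otherwise up to 4 of lowest p; printed here for the upper layer, family, deep layer and excitatory lists), the 5 genes most like the 9 in profile, and list markers over 2 times the highest other library in saline sample 1. Lamp5, Pou3f3, Cdh13, Pvalb, Lhx6, Vip, Prox1, Sox6, Sst, Gad2, Slc17a7, Camk2a, Eomes, Onecut2, Bcl11b, Zfpm2, Fezf2 and Tbr1 were named after their values were seen.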

Additional observations from a re-analysis of the deposited data

How the results depend on the processing

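Over 15 alternatives, 0 of 9 genes passed an adjusted p of 0.05, and 129 of 135 single fold changes kept their sign. The other 6 were Cux2, Pou3f2 and Otof without saline sample 1, at log2 fold changes of -0.0029, -0.0055 and -0.077 with edgeR and -0.0017, -0.0041 and -0.076 with DESeq2. With each library left out in turn, these 3 ranged from -0.0029 to 0.22, from -0.0055 to 0.15 and from -0.077 to 0.34, highest without saline sample 2. The median log2 fold change of the 9 was 0.12 and ranged over 0.05 to 0.17 when each library was left out in turn, lowest without saline sample 1 and highest without morphine sample 2. The count of genes higher at an unadjusted p under 0.05 was 0, and 0 to 3 with each library left out. It was 3 without morphine sample 2, against 3.95% of all genes, and 1 (Rorb) without saline sample 3. With no filter on low counts it was 3 (Rasgrf2, Calb1 and Rorb), and the cause was not tested. The share of all genes was not taken with no filter or without saline sample 3, so those counts cannot be set against it. The count of genes without overlap between the groups was 0, and 0 to 6 with each library left out, where fewer samples also make overlap rarer. The 6 were without morphine sample 2, where 14.7% of all genes were higher without overlap. That sample was the lowest morphine library for each of the 9, so the counts of 3 and 6 without it are no separate finding. Samples of the same number did not deviate together (correlations of deviations -0.021 to 0.015). These values give no sign that the numbers pair the samples, but with 3 samples per group they cannot exclude it. With the replicate number as a block, the median was 0.12, and 0 of 9 genes passed either threshold. The widest 95% interval of the 9, that of Otof, ran from 0.84- to 1.45-fold in all 6 libraries, and the narrowest, that of Cux1, from 0.93- to 1.13-fold.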
